A study of Homo sapiens with 6 samples.

Results

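Chromosome 19 carries many of the KRAB zinc finger genes of the human genome, and the zinc finger genes described here were measured in SH-SY5Y cells that received the orphan nuclear receptor ERRγ. The members were defined by name and position, with earlier results of these data known. The rule took protein-coding genes on chromosome 19 whose symbol is ZNF followed by a number, with at most 1 more letter. They were 246 of the 67016 genes kept from the count table. SH-SY5Y is a neuroblastoma cell line of noradrenergic character, listed in the labels as a neuronal progenitor. The control group (GFP, n = 3 libraries, replicates 1, 3 and 4) was infected with the adenovirus Ad CMV GFP, and the other group (ERRG, n = 3 libraries, replicates 2, 3 and 4) with Ad CMV 3xFlag-*Esrrg*. Both viruses drive their insert from the CMV promoter, both groups carry an adenovirus, and RNA was taken 24 h after the virus was added. The insert is the mouse *Esrrg* coding sequence, there is no uninfected group, and the labels do not say whether the libraries of a group came from separate cultures, so that p-values measure the spread between these libraries, which may be technical.

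A C2H2 zinc finger is a short fold in which a pair of cysteines and a pair of histidines hold a zinc ion, and a row of such fingers reads DNA bases. Most of the chromosome 19 genes arose by tandem duplication and stand in clusters of near relatives. Many encode a KRAB box ahead of the fingers, which binds the corepressor TRIM28 (KAP1). TRIM28 brings in the histone methyltransferase SETDB1, HP1 proteins and the NuRD deacetylase complex, and the best known targets of this machinery are transposable elements. Genes of the family without a KRAB box include small GC-rich genes of less studied function. ERRγ binds the extended half-site TNAAGGTCA and is known as an activator of genes for mitochondrial respiration.

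The fingers themselves show how far members differ in base composition, a property that the fold changes followed. For each of the members below the finger whose GC content was nearest the median of that gene's fingers is printed 5′ to 3′ on the coding strand, from the codon of its first cysteine to that of its last histidine, with the 4 zinc-binding codons in capitals. The first 3 genes had the largest falls among the called members and the last 3 the largest rises (GRCh38, positions on chromosome 19 in the order of the genes: 43873587 to 43873649 on the minus strand, 56525196 to 56525258 on the plus strand, 11806350 to 11806412 on the plus strand, 56088824 to 56088886 on the minus strand, 55481305 to 55481367 on the plus strand and 42078988 to 42079050 on the plus strand).
ZNF404: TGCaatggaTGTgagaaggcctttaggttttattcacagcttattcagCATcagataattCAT
ZNF471: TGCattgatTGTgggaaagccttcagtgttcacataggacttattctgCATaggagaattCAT
ZNF491: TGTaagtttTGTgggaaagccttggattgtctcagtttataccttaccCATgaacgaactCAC
ZNF787: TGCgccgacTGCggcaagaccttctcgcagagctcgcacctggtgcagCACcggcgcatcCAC
ZNF628: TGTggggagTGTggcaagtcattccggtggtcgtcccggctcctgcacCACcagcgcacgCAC
ZNF574: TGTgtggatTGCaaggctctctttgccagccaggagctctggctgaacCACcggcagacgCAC

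The same 63-base unit had a GC content of 36.5% in *ZNF404*, 39.7% in *ZNF471* and 41.3% in *ZNF491*, against 68.3% in *ZNF787*, 66.7% in *ZNF628* and 60.3% in *ZNF574*.

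The 6 libraries held 24969759 to 40859666 counts on genes, a depth that gave the tested members a median of 449 counts per library. *ESRRG*, the human gene to which reads of the viral insert can also map, rose from 2357, 2796 and 2876 counts with GFP to 15228, 25994 and 26497 counts with ERRG (log2 fold change 3.02, SE 0.14, adjusted p = 6.3e-07). ERRG replicate 2 had the smallest rise. The libraries also differed in the share of all reads that fell outside annotated genes, which was 51.3 to 52.2% in the GFP libraries, 46.6% in ERRG replicate 2, and 31.6 and 29.5% in ERRG replicates 3 and 4. Of 7 noradrenergic markers 6 had counts and *TH* had 0 in every library, and their summed level was 722 to 769 CPM (counts scaled to a common total on genes) with GFP and 488 to 548 CPM with ERRG. Of 8 markers of fibroblasts or epithelial cells none was at 0. Their summed level, most of it *COL3A1*, was 3670 to 3864 CPM with GFP and 2561 to 3101 CPM with ERRG. These sums hide single genes that moved otherwise in the scaled comparison described below. *PHOX2A* (log2 fold change 0.81) and *KRT18* (1.56) were called higher there. *DBH* (-2.64), *COL1A2* (-1.47), *LUM* (-1.15) and *DCN* (-0.76) were called lower. The other markers tested, *COL3A1* among them (-0.037), were not called. The part of these differences in the results was not tested.

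The zinc finger genes made up a smaller share of the gene counts in the ERRG group. Summed over the members, GFP replicates 1, 3 and 4 had 5323, 5194 and 5078 CPM of the counts on genes, and ERRG replicates 2, 3 and 4 had 4374, 3590 and 3525 CPM. The groups did not overlap. As a share of all reads, those outside genes included, the difference was smaller, with 1847 to 1915 CPM of all reads in the GFP libraries and 1646 to 1681 CPM in the ERRG libraries. In bulk RNA, fewer cells that express a gene and less of its RNA per cell cannot be told apart.

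Of the 246 genes 229 passed the filter on low counts and were tested. A gene was called at an adjusted p below 0.05 and a change of at least 1.5-fold. By this rule 20 zinc finger genes were higher with ERRG (8.73% of 229), while 17.3% of all 24500 tested genes were called higher, and 39 were lower (17.0%), while 16.8% of all tested genes were called lower. The share called lower was thus near that of all tested genes. It was above the 12.4% of the 13746 tested protein-coding genes, of which 25.9% were called higher. What set the family apart from the average of the table was a small shift of many members: the median log2 fold change was -0.27 over the 229 genes, -0.10 over all tested genes and 0.12 over the 13746 tested protein-coding genes. Without the fold cutoff 100 members were lower (43.7% of 229 at an adjusted p below 0.05), against 23.5% of all tested genes, and 30 were higher, against 24.3%. All 3 ERRG libraries lay below all 3 GFP libraries for 124 members (54.1%), which held for 30.3% of all tested genes, and above them for 40 members (17.5%), which held for 27.8%. All 20 genes called higher and all 39 called lower were among these.

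The shift was present in each ERRG library. The median log2 difference of the 229 members from the GFP mean was -0.20 in ERRG replicate 2, -0.29 in replicate 3 and -0.31 in replicate 4, and between -0.024 and 0.012 in the GFP libraries. ERRG replicate 2, whose share of reads outside genes was nearest that of the controls, was the least shifted. With ERRG replicate 2 as the lone ERRG library 5 members were higher and 21 were lower, while 9.6 and 7.63% of all genes tested there were, and of these 5 and 19 were among the calls of the full comparison. Scaling by library size alone, which moves the median of all tested genes to -0.42, gave 3 members higher (8.98% of all tested genes were) and 113 lower (30.9% of all) with a median of -0.59, and no called gene changed its direction.

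**Figure D1:**
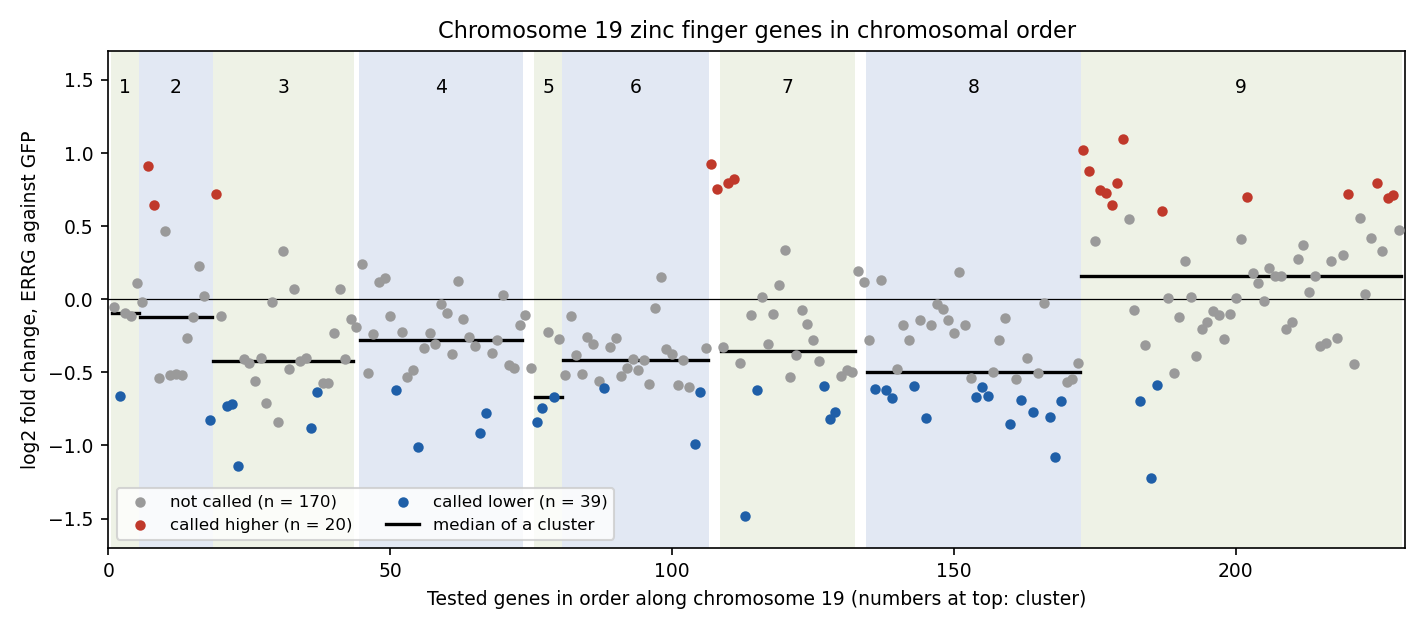
Log2 fold change (ERRG against GFP) of the 229 tested genes in their order along chromosome 19, with shaded clusters 1 to 9 and a black line at each cluster's median. The medians of clusters 3 to 8 lie between -0.67 and -0.28, and 13 of the 20 genes called higher stand in cluster 9, whose median is 0.16.

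Position along the chromosome was described with clusters, defined as runs of at least 5 members with no gap over 1 Mb between the starts of neighbours. There were 9 clusters and 11 scattered genes. Clusters 3 to 8 all had a median below 0. In cluster 3 (11.48 to 12.64 Mb, 25 tested) the median log2 fold change was -0.42, with 1 gene higher and 5 lower. In cluster 4 (19.67 to 24.13 Mb, 29 tested of 37) it was -0.28, with 0 higher and 4 lower, and it turned to 0.032 when GC content alone was corrected for. In the small cluster 5 (34.68 to 34.96 Mb, 5 tested) it was -0.67, and 3 genes were lower. Cluster 6 (36.18 to 37.82 Mb, 26 tested) had a median of -0.41 with 3 genes lower, and cluster 7 (43.53 to 45.08 Mb, 24 tested) a median of -0.35 with 2 higher and 5 lower. Cluster 8 (51.57 to 53.58 Mb, 38 tested), which holds the genes around *ZNF350* and *ZNF841*, had a median of -0.50, and 14 of its genes were lower and 0 higher, the most lower calls of any cluster. The shares called lower in clusters 3 to 8, in order, were 20, 13.8, 60, 11.5, 20.8 and 36.8%. Of all tested genes 16.8% were called lower, and of protein-coding genes 12.4%. The shares called higher were 0 to 8.33%, beside 17.3% of all tested genes. The corresponding median was -0.093 in cluster 1 (2.82 to 2.94 Mb, 5 tested, but 0.058 without ERRG replicate 2 and 0.014 without GFP replicate 4), -0.12 in cluster 2 (7.07 to 9.79 Mb, 13 tested) and 0.12 over the 7 tested scattered genes.

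Cluster 9, at the end of the long arm (55.48 to 58.48 Mb), was the one cluster with a median above 0 in the full comparison (0.16, 57 tested). It held 13 genes called higher (22.8%, beside 17.3% of all tested genes) and 3 called lower (5.26%, beside 16.8%). All 13 were among its 41 tested genes with a GC content above 44.7% (median 0.30). Its 14 genes between 41.6 and 44.7% had a median of -0.11, and its 2 genes below one of -0.60. With the KRAB box read as described below, its 42 tested genes with a box had a median of 0.0066 and its 15 without one 0.55. Without ERRG replicate 2 the median of cluster 9 was 0.25, and with GC content alone corrected for it was 0.12, where cluster 2 also had a median of 0.12. Its median stood 0.57 above that of clusters 3 to 8 as a whole (-0.41, 147 tested, 3 higher and 34 lower), a grouping chosen after the medians were seen and not tested. Scaled by library size alone cluster 9 had a median of -0.16 and all tested genes one of -0.42. The cluster has 2 unlike portions when it is divided at gaps over 0.5 Mb. The portion from 55.48 to 56.67 Mb (15 tested, median GC content of the exons 62.3%) had a median of 0.61, with 8 genes higher and the cluster's 3 lower genes, *ZNF583*, *ZNF471* and *ZNF470*. These 3 genes stand between 56397966 and 56588911 and had GC contents of 38.5, 41.6 and 41.6%. The portion from 57.19 to 58.48 Mb (42 tested) had a median of 0.079, with 5 genes higher and 0 lower.

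**Figure D2:**
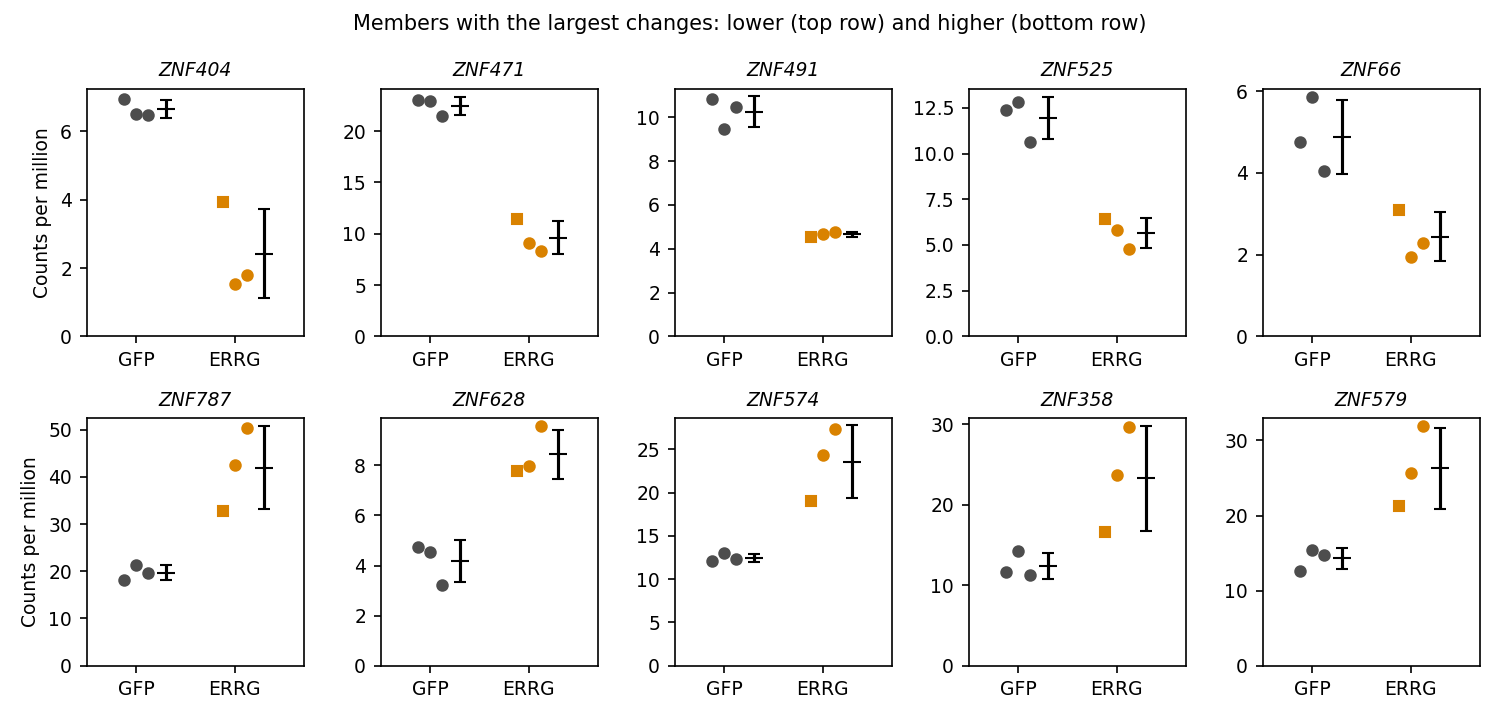
Normalized level (CPM) of the 5 members with the largest fall (top row) and the 5 with the largest rise (bottom row), each in 3 GFP libraries (grey) and 3 ERRG libraries (orange, with ERRG replicate 2 as a square), with the mean and SD of each group. The groups do not overlap in any panel, and for *ZNF404* ERRG replicate 2 lies between the GFP libraries and the other 2 ERRG libraries.

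Counts are given as deposited, in the order of the replicates, and whether groups overlap was judged on CPM scaled with TMM factors, as are all CPM of single genes, since the libraries differ in depth. The largest fall was that of *ZNF404* (ENSG00000176222, cluster 7, 43872365 to 43901385), a KRAB gene with 14 fingers. It had 196, 201 and 215 counts in the GFP libraries and 105, 52 and 61 in the ERRG libraries (log2 fold change -1.48, SE 0.29, adjusted p = 0.0019, or 2.79-fold lower). All ERRG libraries were below all GFP libraries, and ERRG replicate 2 was the nearest to the controls. *ZNF471*, the gene in cluster 9 whose finger is printed above, had 649, 709 and 711 counts with GFP and 307, 307 and 283 with ERRG (-1.23, SE 0.13, adjusted p = 7.1e-05). Its level was 22.5 ± 0.863 CPM with GFP and 9.64 ± 1.65 CPM with ERRG (SD, n = 3 each). *ZNF491* in cluster 3 had 10.9, 9.47 and 10.5 CPM with GFP and 4.53, 4.66 and 4.78 CPM with ERRG, the latter almost alike (-1.14, SE 0.13, adjusted p = 8.8e-05). *ZNF525* in cluster 8 fell from 349, 397 and 352 counts to 171, 196 and 162 (-1.08, SE 0.15), and *ZNF66* in cluster 4 from 134, 181 and 134 counts to 83, 65 and 78 (-1.01, SE 0.22). *ZNF66* shares 9.45% of its 100-base exon words with other places on the primary chromosomes and 57.8% with alternate contigs of the genome, so its reads could be lost or moved between copies. All of these 5 genes were also called lower in every fit that left out 1 library and with ERRG replicate 2 as the lone ERRG library, where *ZNF404* was at -0.75. With each library's percentage of reads outside genes as a covariate *ZNF404* was at -0.39 (adjusted p = 0.29) and *ZNF66* at -0.52 (adjusted p = 0.22), and neither was called, while the other 3 were. This percentage largely follows the groups (51.3 to 52.2% with GFP, 29.5 to 46.6% with ERRG), so the fit separates them poorly. Of all tested genes 7.24% were called higher and 5.4% lower with it, against 17.3 and 16.8% without. A call lost with the covariate therefore says little about a single gene.

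The lowest members of the other clusters were also called. *ZNF571* in cluster 6 went from 320, 308 and 369 counts to 205, 151 and 147 (-0.99, SE 0.20), *ZNF302* in cluster 5 from 939, 1067 and 1028 to 560, 552 and 614 (-0.84, SE 0.11), *ZNF846* in cluster 2 from 665, 691 and 675 to 382, 389 and 399 (-0.82, SE 0.12) and *ZNF555* in cluster 1 from 411, 478 and 492 to 252, 355 and 286 (-0.66, SE 0.12). For none of these did a library of one group reach the range of the other. *ZNF555* stayed under the fold cutoff without ERRG replicate 2 (-0.55) or 4 (-0.57), and *ZNF571* with ERRG replicate 2 as the lone ERRG library (-0.49). With the covariate *ZNF571* (-0.24), *ZNF302* (-0.58) and *ZNF846* (-0.53) were not called. Over the 39 lower genes the log2 fold change ran from -1.48 to -0.59, with a median of -0.72.

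The largest rise was that of *ZNF787* (ENSG00000142409, cluster 9, 56087366 to 56121295, 7 fingers), which had 512, 658 and 647 counts with GFP and 876, 1434 and 1718 with ERRG (log2 fold change 1.09, SE 0.15, adjusted p = 0.00025, or 2.13-fold higher). *ZNF628* in the same cluster had 134, 141 and 107 counts with GFP and 208, 269 and 326 with ERRG (1.02, SE 0.17, adjusted p = 0.00087). Both were separated between groups in every library, again with ERRG replicate 2 the nearest to GFP. *ZNF574*, a scattered gene that starts at 42068477, rose from 341, 401 and 407 counts to 508, 820 and 932 (0.92, SE 0.14). *ZNF358* in cluster 2 rose from 329, 440 and 374 to 443, 795 and 1008 (0.91, SE 0.19), and exons of other annotated genes cover 34.1% of its exon bases. *ZNF579* in cluster 9 rose from 357, 478 and 488 to 569, 862 and 1090 (0.88, SE 0.15). Of these 5 genes *ZNF628* was called with the covariate (0.83), and *ZNF787* (0.55), *ZNF574* (0.45), *ZNF579* (0.40) and *ZNF358* (0.17) were not. *ZNF358* (0.42) and *ZNF579* (0.58) also stayed under the fold cutoff with ERRG replicate 2 as the lone ERRG library. *ZNF653* was the highest of cluster 3 and the one gene called higher there (158, 168 and 139 counts with GFP, 169, 315 and 315 with ERRG, 0.72, SE 0.18), and *ZNF428*, which has 1 recognizable finger, was the highest of cluster 7 (0.82, SE 0.14). The 20 higher genes ran from 0.61 to 1.09 on the log2 scale.

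**Figure D3:**
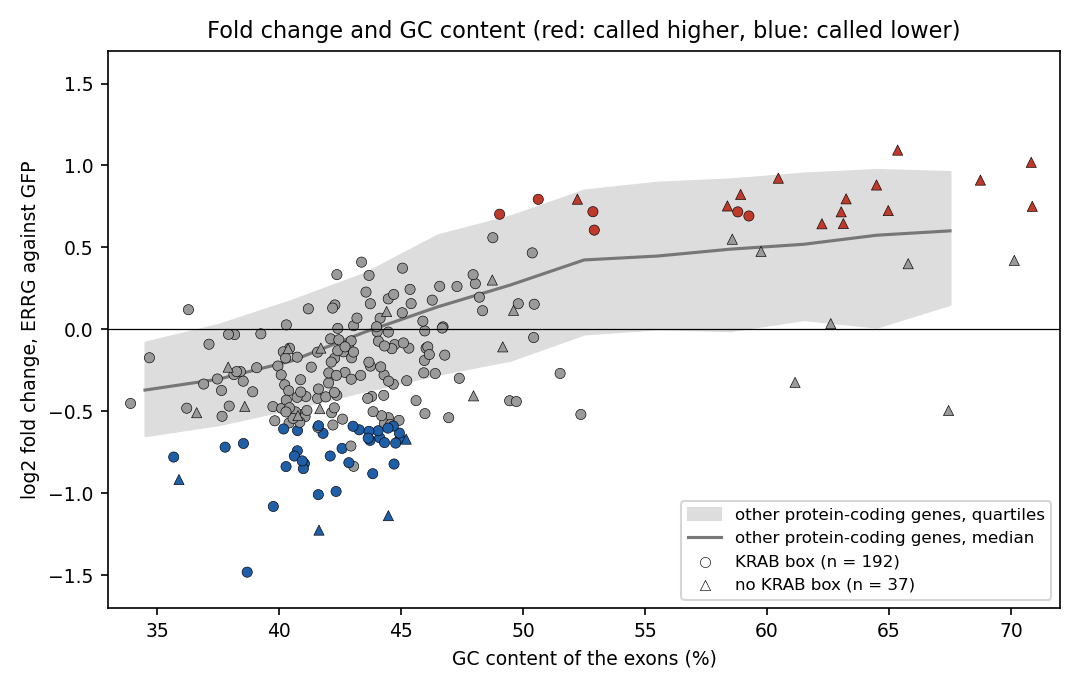
Log2 fold change (ERRG against GFP) against the GC content of the exons for the 229 tested members, as circles where a KRAB box was found and triangles where none was, red if called higher and blue if called lower. The grey line and band give the median and quartiles of the other protein-coding genes in 3% bins, and the called genes divide at a GC content between 45.2 and 49.0%.

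GC content separated the genes called higher from those called lower without overlap. The exons of the 39 lower genes had a GC content of 35.7 to 45.2% (median 42.3%), and those of the 20 higher genes 49.0 to 70.9% (median 61.4%). Across the 229 members Spearman's rho of the log2 fold change with GC content was 0.50. Across the 13517 other tested protein-coding genes it was 0.41, so that the relation was also found outside the family. The rho with exon length was -0.15 in the members and -0.26 in the other genes. These are correlations across genes that share the same 6 libraries, and genes are not independent replicates.

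Members were divided into 3 equal groups by GC content, at 41.6 and 44.7%. Of the 70 tested genes of the lowest group 0 were higher and 14 lower, with a median log2 fold change of -0.43, and the other protein-coding genes within the same limits had a median of -0.26 (198 higher and 707 lower of 3235). Of the 81 genes of the middle group 0 were higher and 19 lower with a median of -0.32, beside -0.030 in 1878 other genes (249 higher and 281 lower). All 20 higher genes were in the upper group, where 6 of 78 were lower and the median was 0.13 (0.13 to 0.26 with 1 library left out), beside 0.37 in 8335 other genes (3076 higher and 672 lower). In the lowest and the middle group the zinc finger genes thus had a lower median than other protein-coding genes, at a median GC content of 40.2 against 39.0% and 43.1 against 43.1%. In the upper group the members' median GC content was 48.5% and that of the other genes 53.9%, so that their medians are not compared at the same composition. Other protein-coding genes with a GC content of 45 to 48% had a median of 0.14, and those with 48 to 51% one of 0.27. By length, the 75 tested genes of the shortest group (1441 to 4398 exon bases) had a median of -0.10 with 15 higher and 13 lower, the middle group -0.31 with 3 higher and 13 lower of 76, and the longest group -0.29 with 2 higher and 13 lower of 78. GC content and length were themselves related in the members (rho -0.32).

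Each library was then corrected for GC content and exon length with smooth curves fitted over all genes. After this 0 members were higher, while 13.3% of all tested genes were, and 32 were lower, while 15.1% of all were. All 20 genes called higher kept a log2 fold change above 0, between 0.11 and 0.58 with a median of 0.34. Of the 39 genes called lower 28 were called again, and their median moved from -0.72 to -0.64. *ZNF404*, *ZNF471*, *ZNF491*, *ZNF525* and *ZNF66* were all among them, with corrected log2 fold changes of -1.28, -1.10, -1.14, -0.89 and -0.89. The median of all members was -0.17 after the correction, beside -0.065 over all tested genes and 0.038 over protein-coding genes. Cluster 4 (median GC content 38.2%) moved to -0.016, and clusters 3, 5 and 8 were at -0.40, -0.59 and -0.41. The difference between cluster 9 and clusters 3 to 8 went from 0.57 to 0.35.

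**Figure D4:**
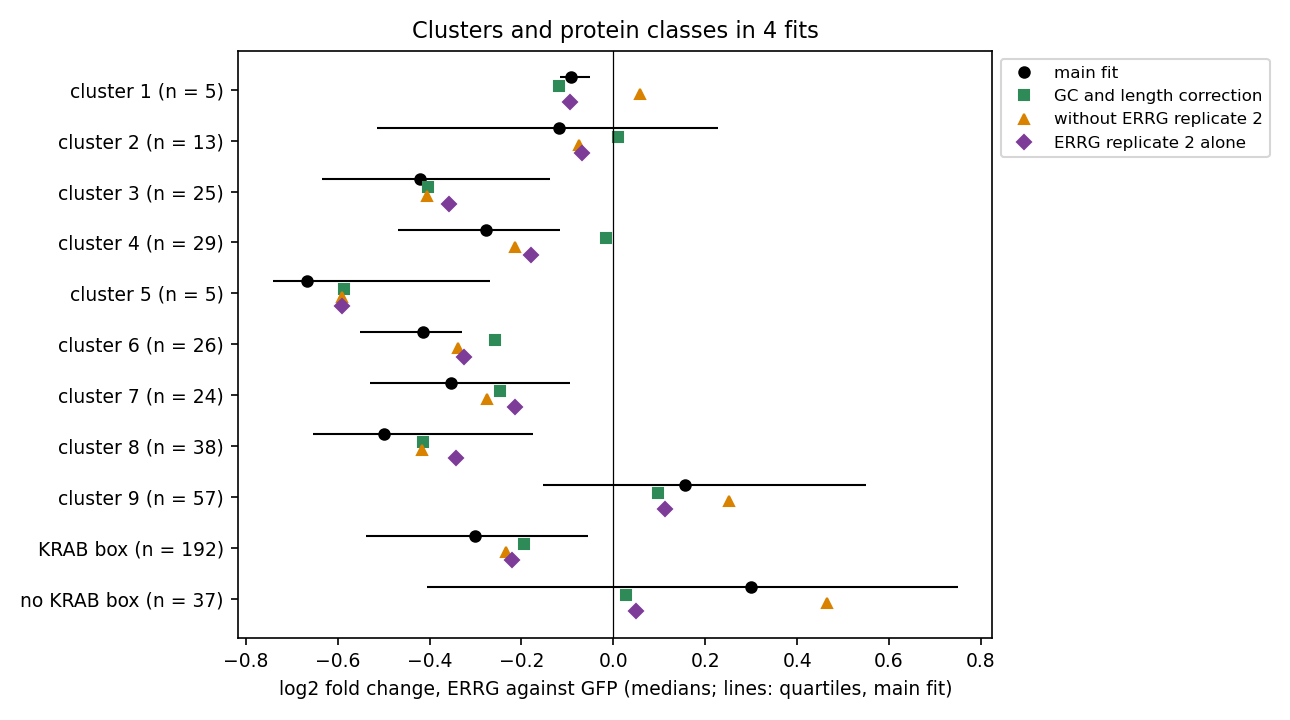
Median log2 fold change (ERRG against GFP) of each cluster and of the members with and without a KRAB box, in the full comparison (black, lines mark quartiles over genes) and in 3 other fits. Clusters 3 to 8 stay below 0 in the 4 fits, and the members without a KRAB box move from 0.30 to 0.028 when corrected for GC content and length.

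The number of fingers and the KRAB box were read from the translated coding sequences by fixed patterns. Members had 1 to 36 fingers with a median of 12, the higher genes had a median of 8 and the lower genes of 14. Spearman's rho of the log2 fold change with the number of fingers was -0.31 across the 229 genes and -0.27 after correcting for GC content and length. A strict KRAB pattern was found in 169 members. Of the 158 tested, 6 were higher and 29 lower with a median of -0.29, and of the 71 tested members without it 14 were higher and 10 lower with a median of -0.12. A wider pattern, added after genes known for a KRAB box such as *ZNF224* and *ZNF350* had been missed, found the box in 206 members. With it, 6 of 192 tested genes were higher (3.12%) and 35 lower (18.2%), with a median of -0.30. Of the 37 without the box 14 were higher (37.8%) and 4 lower (10.8%), with a median of 0.30, or -0.031 when scaled by library size alone. Of all tested genes 17.3% were called higher and 16.8% lower. The share of genes with the box called lower was thus near the background. A pattern can still miss a box with other residues. *ZNF471* (-1.23) and *ZNF491* (-1.14), both called lower, matched neither pattern and are counted among the genes without the box. Members without the box were richer in GC. In the upper GC group 14 of 26 genes without a box (53.8%) and 6 of 52 with one (11.5%) were higher, with medians of 0.64 and -0.030. Of the other protein-coding genes within the same limits 36.9% were called higher. The median GC contents of these 3 sets were 62.4, 46.5 and 53.9%, so they are not compared at the same composition. In the lowest GC group the medians were -0.49 (6 genes) and -0.42 (64 genes). After correcting for GC content and length the median of the genes without the box was 0.028 and that of the genes with it -0.19.

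Among members with an established role few were called. *ZNF274*, which takes part in silencing other zinc finger genes at their 3′ ends by way of TRIM28 and SETDB1, was called higher, with 309, 306 and 353 counts in the GFP libraries and 419, 626 and 597 in the ERRG libraries (0.72, SE 0.11, adjusted p = 0.00052). After correcting for GC content and length it was 0.43 and not called. *ZNF350* (ZBRK1), a repressor that works with BRCA1, was called lower, from 354, 329 and 361 counts to 208, 213 and 246 (-0.68, SE 0.13), and also after the correction (-0.65). *ZNF91* and *ZNF93*, which repress SVA and LINE-1 elements, had log2 fold changes of -0.28 (SE 0.11, adjusted p = 0.057) and 0.15 (SE 0.12, adjusted p = 0.34), and neither was called. *ZNF224*, a repressor of the aldolase A gene (-0.53, SE 0.15), *ZNF420* (APAK), a negative regulator of p53 (-0.48, SE 0.14), and *ZNF331*, an imprinted gene (-0.44, SE 0.12), had adjusted p of 0.015, 0.018 and 0.014 and stayed under the 1.5-fold cutoff, as did *ZNF382* (-0.30) and, in the other direction, *ZNF444* (0.55, adjusted p = 0.0011). *ZNF473*, which acts in histone mRNA processing, *ZNF536*, a regulator of neuronal differentiation, *ZNF649* and *ZNF675* had values between -0.11 and 0.13 and adjusted p from 0.35 to 0.87. *ZNF296*, with 6 to 21 counts in each library, was at -0.50 with an SE of 0.44, so that at this depth no difference of that size was detectable.

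The most abundant members were not those that changed most. Per kilobase of exon, the levels in the GFP libraries were highest for *ZNF460* (20.9 CPM per kb), *ZNF146* (20.2), *ZNF581* (14.9), *ZNF121* (13.8) and *ZNF875* (12.1), and the median of the tested members was 2.65 CPM per kb. *ZNF460* had 83.5 ± 8.53 CPM with GFP and 77.0 ± 7.87 CPM with ERRG (SD, n = 3 each), and *ZNF146*, a gene of 10 fingers without a KRAB box, 83.6 ± 7.55 and 77.2 ± 6.96 CPM. Neither difference exceeded the spread between libraries (adjusted p = 0.40 and 0.39). *ZNF121* (-0.12, SE 0.094) and *ZNF875* (0.15, SE 0.086) were also not called. *ZNF581* was the exception, with 583, 839 and 833 counts against 765, 1527 and 1793 (0.80, SE 0.19, adjusted p = 0.0067). Exons of other genes cover 24.9% of its bases.

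The other highest members of a cluster, *ZNF77* (0.11), *ZNF101* (0.24), *ZNF599* (-0.22) and *ZNF578* (0.19), were not called, with adjusted p from 0.094 to 0.52. Of the 17 members that were not tested, 12 had at most 3 counts in every library and the largest single count was 12. *ZNF546*, *ZNF676* and *ZNF780A* had 0 in every library, which allows at most 3 counts per library, and 8 of the 17 are in cluster 4. Reads of *ZNF85* and *ZNF100* (at most 1 count in each library) could not map uniquely if alternate contigs of the genome were in the index, because 100% of their 100-base exon words also occur on such contigs. For *ZNF676* the share was 93.4%. Whether the index held these contigs is not given in the sources used here, and the levels of these genes are therefore uncertain. Of all 246 members 155 share no 100-base exon word with another place on the primary chromosomes, and 9 share over 10% of them. Exons of other genes cover over 20% of the exon bases of 34 members, 5 of them called higher and 2 lower.

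**Figure D5:**
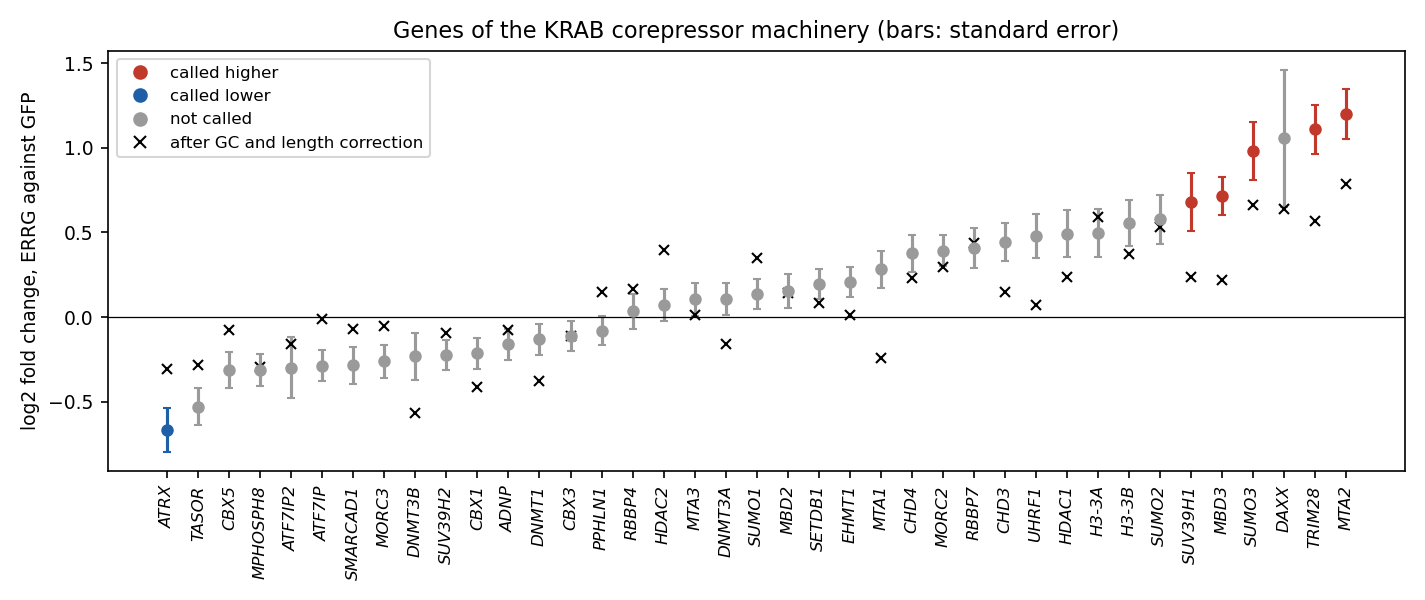
Log2 fold change (ERRG against GFP) of 39 of the 40 tested genes of the KRAB corepressor machinery, with bars of 1 standard error, in order of their value, and crosses for the value after correcting for GC content and length. *MTA2* and *TRIM28* lie highest among the genes called higher, and *ATRX* is the one called lower.

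The genes of the machinery that KRAB proteins recruit were described from a list of 41. Of the 40 tested, 6 were higher (15%), 1 was lower (2.5%) and 33 were not called, with a median of 0.15. Of all tested genes 17.3% were called higher and 16.8% lower. Among tested protein-coding genes the shares were 25.9 and 12.4%, with a median of 0.12. In the full comparison the share of the list called higher was thus not above the background. With DESeq2 it was 22.5%, beside 19.3% of all tested genes and 28.9% of protein-coding ones. *TRIM28*, the corepressor that binds the KRAB box, had 6000, 7894 and 7937 counts with GFP and 10872, 17791 and 20185 with ERRG (1.11, SE 0.14, adjusted p = 0.00020). All ERRG libraries were above all GFP libraries. Its gene (58544064 to 58550722) starts 62.8 kb beyond the last member of cluster 9. *MTA2* and *MBD3*, subunits of the NuRD complex, were at 1.20 (SE 0.15) and 0.72 (SE 0.11). *SUMO3*, which encodes a SUMO protein, was at 0.98 (SE 0.17), and the histone methyltransferase gene *SUV39H1* at 0.68 (SE 0.17). *ATRX*, a chromatin remodeller, fell from 12446, 13121 and 12247 counts to 8071, 8402 and 7745 (-0.67, SE 0.13). *SETDB1* (0.19, SE 0.090) and the HP1 genes *CBX1* (-0.21), *CBX3* (-0.11) and *CBX5* (-0.31) were not called, and *EHMT2* is listed at 0 in every library, and whether its reads could map uniquely was not examined. After correcting for GC content and length 3 genes were called higher, *MTA2* (0.79), *SUMO3* (0.66) and *H3-3A* (0.59), and 0 lower, and *TRIM28* was at 0.57, just under the fold cutoff. Without ERRG replicate 2, 15 of the 40 were called higher, a larger share than the 22.9% of all tested genes called higher there. *ATRX* was not called without ERRG replicate 4 (-0.57), nor *SUV39H1* without GFP replicate 1 (0.53).

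A promoter window from RefSeq (GRCh38.p14, 250 bases before to 50 after the start) was matched for 216 members. AAGGTCA was found on either strand in 12 of them (5.56%), beside 3.97% of all 27305 promoters, and the full half-site TNAAGGTCA, which contains it, in 4 (1.85%), beside 0.963%. The windows are shown for the largest rise and for the called gene with the full half-site, 5′ to 3′ along the motif, with AAGGTCA in capitals (*ZNF787* at 56121295 to 56121301 on the minus strand, 6 bases before the start, and *ZNF836* at 52171864 to 52171870 on the plus strand, 249 bases before the start and cut by the end of the window).
ZNF787: gcggccgggAAGGTCActtccggcc
ZNF836: ttagactttAAGGTCAa

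*ZNF836* was called lower, with 314, 322 and 337 counts against 160, 202 and 206 (-0.81). The other 3 genes with the full half-site, *ZNF527* (-0.34), *ZNF808* (-0.18) and *ZNF320* (-0.13), were not called. The 11 tested members with AAGGTCA had a median of -0.13 with 1 higher and 2 lower, and the 193 without it a median of -0.28 with 19 higher and 30 lower. A match is a description of letters and not evidence of binding.

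The family was last set beside its nearest relatives by name and by place. Of the 262 genes with names of the same form on other chromosomes 229 were tested, 29 were higher and 44 lower, and the median was -0.057. The other protein-coding genes of chromosome 19 (760 tested of 1226) had a median of 0.58, with 365 higher and 46 lower. The zinc finger genes thus had a lower median than their neighbours on the chromosome, by 0.85. After correcting for GC content and length the medians were -0.17 for the members, -0.15 for the zinc finger genes of other chromosomes and 0.14 for the other genes of chromosome 19. These differences between groups of genes were not tested.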

How the data were processed

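RNA of SH-SY5Y cells was sequenced from 6 libraries after rRNA depletion with a directional kit. Per the labels' processing notes the authors used CASAVA, Trim Galore 0.6.7, STAR 2.7.9a, HTSeq 0.11.3 and DESeq2 on GRCh38, and deposited raw counts of reads per gene, with no normalization. The annotation release, the strand setting of the counting and the contigs of the index are not given in the sources used here. If reads were counted without strand, those over bases shared by a gene and its antisense partner cannot be assigned to either. Reads that map to several places are set apart from the genes in the table (7.16 to 7.41% of all reads in the GFP libraries, 9.33 to 13.0% in the ERRG libraries). So are reads outside genes and reads ambiguous between genes, and none of these enters the library sizes. The ambiguous reads were 4.55 to 4.87% of all reads in the GFP libraries. In ERRG replicates 2, 3 and 4 they were 5.69, 9.84 and 9.79%. Their part in the results was not tested. Of the identifiers 90.2% matched GENCODE release 44, from which names, positions, exon length and GC content were taken. The members, lists and tests were chosen with earlier results of these data known.

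Counts were tested with edgeR 4.0.16 in R 4.3.3: filterByExpr, TMM scaling, the quasi-likelihood test of ERRG (n = 3) against GFP (n = 3) over 24500 genes, and Benjamini-Hochberg adjustment over all of them, checked on simulated data. A call needed an adjusted p below 0.05 and 1.5-fold, the cutoff of the study's methods for its other data. The SE is the log2 fold change divided by the root of the F statistic. CPM of single genes used the TMM factors, and CPM summed over genes did not. Named genes were *ESRRG*, the 5 called members with the largest change in each direction (mean of at least 50 counts, groups not overlapping), the highest and lowest member of each cluster, the 5 highest levels per kilobase, members with a textbook role, and of the corepressor list *TRIM28*, *SETDB1*, the HP1 genes and any called gene, of which 1 is counted but not reported here. Other genes were named after their values were seen. Fingers and KRAB boxes were searched in translated GENCODE coding sequences, since the RefSeq proteins planned for this were not used here. GC content and length were corrected with mgcv 1.9.3 curves as offsets. Alternatives were DESeq2 1.42.0, other scalings, filters and cutoffs, these corrections, a covariate (each library's percentage of reads outside genes), the replicate number as a block, and leaving out each library. Intervals and limits cover counting error only.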

Additional observations from a re-analysis of the deposited data

Results flagged for a closer look

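Signals outside the 246 protein-coding genes came from long noncoding RNAs named after members, which entered none of the comparisons above. Of 26 tested RNAs named after zinc finger genes of the chromosome 3 were called higher (11.5%), beside 17.3% of all tested genes. *ZNF584-DT*, a divergent transcript, was called higher, with 425, 496 and 499 counts in the GFP libraries and 564, 821 and 922 in the ERRG libraries (log2 fold change 0.65, adjusted p = 0.00098 in edgeR's quasi-likelihood test). *ZNF793-AS1*, an antisense RNA, was called higher, with 57, 53 and 62 counts against 76, 114 and 121 (0.81, adjusted p = 0.0048). *ZNF561-AS1*, also antisense, was called higher, with 429, 483 and 553 counts against 501, 843 and 947 (0.59, adjusted p = 0.0057). After correcting for GC content and length *ZNF584-DT* was at 0.13 (adjusted p = 0.21) and not called, while the other 2 were called. When scaled by library size alone none of the 3 was called (0.32, 0.47 and 0.25 in the order above), nor with ERRG replicate 2 as the lone ERRG library (0.46, 0.61 and 0.25). The strand setting of the counting is not given. Whether reads of these RNAs and of the genes on the other strand were told apart is therefore unknown.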

How the results depend on the processing

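With 3 libraries a group, the spread rests on few libraries and members with few counts have wide errors. No gene called in the full comparison was called in the opposite direction under any alternative. The cause of the differences below was not tested, except that a cutoff or a lone library makes fewer calls by its construction. The covariate largely follows the groups, so a call lost with it says little about a gene.

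The numbers of members called higher and lower (20 and 39) were 3 and 113 with library size only, 11 and 75 with protein-coding genes only, 2 and 5 with a 2-fold cutoff, 3 and 6 with a test against a 1.5-fold threshold, 4 and 13 with the GC correction, 12 and 63 with the length correction, 2 and 15 with the covariate (percentage of reads outside genes), and 5 and 21 with ERRG replicate 2 alone. Without the fold cutoff 100 were lower, and after the GC and length correction 0 were higher. Leaving out 1 library gave 15 to 26 higher and 30 to 44 lower, and 15 and 23 genes were called in every one of these fits. DESeq2 called 22 higher and 27 lower. Of all genes tested the shares called higher and lower were 19.3 and 13.1% with DESeq2, 20.5 and 18% with protein-coding genes only, 14.4 and 14.9% with the GC correction, 15.7 and 17% with the length correction, 7.24 and 5.4% with the covariate, 7.97 and 8.09% with a 2-fold cutoff, and 9.01 and 5.66% with the 1.5-fold threshold test, and the members called are 0.873 and 2.18%, and 1.31 and 2.62%, of those tested in these last 2.

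The median of the members (-0.27) was -0.19 with DESeq2 or RLE size factors, -0.59 when scaled by library size only, -0.41 with protein-coding genes only, -0.17 with the GC and length correction, -0.083 with the GC correction, -0.33 with the length correction, -0.18 with the covariate, -0.21 with ERRG replicate 2 alone, and -0.26 to -0.19 with 1 library left out. The difference between cluster 9 and clusters 3 to 8 (0.57) was 0.35 with the GC and length correction, 0.30 with the GC correction, 0.32 with the covariate, 0.40 with ERRG replicate 2 alone, and 0.53 to 0.59 with 1 library left out. The rho with GC content (0.50) was 0.22 with either correction for GC, 0.33 with the covariate, 0.42 with ERRG replicate 2 alone, and 0.45 to 0.53 with 1 library left out. The difference between members without and with a strict KRAB pattern (0.17) was 0.60 with the wider pattern, chosen after seeing the data, 0.11 with the GC or the length correction, 0.062 with the covariate, 0.075 with ERRG replicate 2 alone, and 0.13 to 0.20 with 1 library left out.

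Of the corepressor list (6 higher and 1 lower, median 0.15) 15 were higher without the fold cutoff, 2 with a 2-fold cutoff, with the covariate or with ERRG replicate 2 alone, and 3 after the GC and length correction. The number lower was 7 with library size only, 2 with protein-coding genes only, 6 without the fold cutoff, and 0 with a 2-fold cutoff, the 1.5-fold threshold test, each correction for GC or length, the covariate or ERRG replicate 2 alone. The median was -0.18 with library size only, 0.0088 with protein-coding genes only, -0.038 with the covariate and 0.0073 with ERRG replicate 2 alone. Leaving out 1 library gave 5 to 15 higher, 0 to 1 lower and a median of 0.11 to 0.32, with the 15 higher and the 0.32 without ERRG replicate 2 and the 0 lower without ERRG replicate 4.

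Replicate numbers 3 and 4 are shared by the groups, and the labels do not say whether they pair cultures. The deviations of same-numbered libraries from their group means had r of 0.075 and -0.0001. So few pairs cannot settle whether the numbers mark a shared culture or batch. Replicate 1 occurs only with GFP and replicate 2 only with ERRG. With the replicate number as a block, the contrast therefore rests on replicates 3 and 4 of each group, without ERRG replicate 2. With this block 22 members were higher and 49 lower (19.4 and 23.2% of all tested genes were), and 11 and 2 of the corepressor list. With the GC and length correction and the block 2 members were higher and 43 lower, the median was -0.20, the cluster difference 0.37, the rho 0.23, the KRAB difference 0.097, and 0 corepressor genes were lower.

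Directions that changed belonged to genes that were not called, apart from *ZNF581* (-0.040 with the covariate). With library size only the log2 fold change was -0.22 for *ZNF77*, -0.084 for *ZNF101*, -0.17 for *ZNF93*, -0.29 for *ZNF675*, -0.16 for *ZNF875*, -0.21 for *ZNF473*, -0.19 for *ZNF649*, -0.13 for *ZNF578* and -0.13 for *SETDB1*. With protein-coding genes only it was -0.026 for *ZNF77*, -0.11 for *ZNF675*, -0.022 for *ZNF473* and -0.0068 for *ZNF649*. With the length correction *ZNF77* was at -0.033, *ZNF675* at -0.058 and *ZNF649* at -0.033. With the GC correction *ZNF121* was at 0.14, *ZNF91* at 0.032, *ZNF146* at 0.10 and *CBX3* at 0.012. With the GC and length correction *ZNF121* was at 0.058, *ZNF875* at -0.047 and *ZNF473* at -0.059, and with the block added at 0.0020, -0.10 and -0.099. With the covariate *ZNF77* was at -0.19, *ZNF121* at 0.066, *ZNF146* at 0.080, *ZNF296* at 0.26, *ZNF473* at -0.020 and *ZNF460* at 0.12. With ERRG replicate 2 alone *ZNF77* was at -0.094, *ZNF121* at 0.011, *ZNF146* at 0.021, *ZNF296* at 0.050 and *ZNF460* at 0.031. *ZNF675* was at -0.0015 with at least 10 counts in every library, at -0.065 with the block, and between -0.028 and 0.12 with 1 library left out (below 0 without GFP replicate 1 or 4). With 1 library left out *ZNF536* was between -0.14 and 0.027 and *CBX3* between -0.13 and 0.0083, both above 0 without ERRG replicate 2.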

Other observations

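Chromosome 19 also holds zinc finger genes that fall outside the naming rule. Of 15 protein-coding genes named ZFP, ZSCAN, ZIM, ZIK or PEG3, 9 were tested, 5 were called lower with ERRG and 0 higher, with a median log2 fold change of -0.66, beside 17.3% of all tested genes called higher and 16.8% lower. *PEG3*, a paternally expressed imprinted gene, had 74, 78 and 57 counts in the GFP libraries and 13, 24 and 24 in the ERRG libraries (-1.82, SE 0.27, adjusted p = 0.00038 in edgeR's quasi-likelihood test). *ZFP14* went from 1060, 1087 and 1137 counts to 526, 678 and 648 (-0.86, SE 0.092). *ZFP82*, *ZFP30* and *ZFP28* were at -0.68, -0.68 and -0.66. In all 5 the ERRG libraries lay below the GFP libraries in CPM, and *PEG3* and *ZFP14* were also called when corrected for GC content and length, while the other 3 were not. *ZIM3*, known for a strongly repressive KRAB domain, had 0 counts in every library.

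Of 20 zinc finger pseudogenes of the chromosome 11 were tested, with a median of -0.12. Of these 3 were lower (27.3%, beside 16.8% of all tested genes) and 0 higher (beside 17.3%). Those lower were *ZNF137P* (-0.93), *ZNF826P* (-0.78) and *ZNF781* (-0.71), which is annotated as a pseudogene in the release used. After correcting for GC content and length *ZNF137P* was called (-0.66), and *ZNF826P* (-0.50) and *ZNF781* (-0.45, adjusted p = 0.070) were not. Pseudogene reads are near those of the parent genes in sequence, so their counts are uncertain. Of 33 long noncoding RNAs named after these genes 26 were tested, 3 were higher (11.5%) and 4 were lower (15.4%). Neither share was above the 17.3 and 16.8% of all tested genes. The lower ones were *ZNF497-AS1* (-0.75), *ZNF571-AS1* (-0.64), *ZNF470-DT* (-0.63) and *ZNF45-AS1* (-0.59). Without ERRG replicate 2 *ZNF497-AS1* (-0.60) was called and the other 3 were not. All of these genes were named after their values were seen.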
